A study of Mus musculus with 12 samples.

Results

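The 8 genes described here encode enzymes, or enzyme subunits, that build the sugar chains of alpha-dystroglycan: Gmppb, Dpm1, Dpm2, Dpm3, Pomt1, Pomt2, Pomgnt1 and B3galnt2. They were found by gene symbol in a table of read counts with 24421 entries, and all 8 were present and passed the filter on low counts. The tissue is the tibialis anterior, a muscle of the hindlimb, and the counts come from the mRNA of 12 male mice aged 4 months. WT mice are C57Bl/6 (n = 6). mdx/mTR mice (n = 6) carry the mdx allele of Dmd, the dystrophin gene, together with the mutation named mTR, after the mouse telomerase RNA gene Terc. The labels name neither the generation of telomerase loss nor whether the WT mice were littermates, and no group carries the mdx allele or the mTR mutation alone, so the effects of the mutations cannot be told apart. The labels do not say more of each sample than its strain, age, sex and number, so p-values measure the spread between these 6 samples a group.

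Alpha-dystroglycan is the outer part of the dystrophin complex of the muscle fibre membrane. It holds the fibre to laminin and other matrix proteins through a long sugar chain built on mannose. Mannose is first activated to GDP-mannose, loaded onto the lipid dolichol phosphate, and then moved to the protein in the endoplasmic reticulum, after which other enzymes extend the chain there and in the Golgi apparatus. Inherited loss of these enzymes causes muscular dystrophies called dystroglycanopathies.

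Dpm2, Dpm3 and Pomgnt1 rose in mdx/mTR muscle, by 25.1%, 31.8% and 17.1% of the WT mean, and B3galnt2 fell by 19.7%. The other 4 genes, Gmppb, Dpm1, Pomt1 and Pomt2, did not pass the threshold, an adjusted p of 0.05 over the 13937 genes tested (edgeR quasi-likelihood test with Benjamini-Hochberg adjustment). In all, 4 of 8 members passed, 3 higher and 1 lower. Of all genes tested, 48.3% passed, 25.0% higher and 23.4% lower, so the share of members called was close to that of the whole table. Pomgnt1 and Dpm3 were higher without overlap between the groups, as were 12.6% of all genes. The median absolute log2 fold change was 0.24 for the members and 0.23 for all genes. Levels below are CPM, that is counts relative to library size after TMM scaling (trimmed mean of M-values). Scaled by library totals alone, the median gene moved from a log2 fold change of 0.01 to 0.17, the share of called genes that were higher moved from 51.6% to 78.2%, and 4 members passed, all higher (Gmppb, Dpm2, Dpm3 and Pomgnt1).

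**Figure D1:**
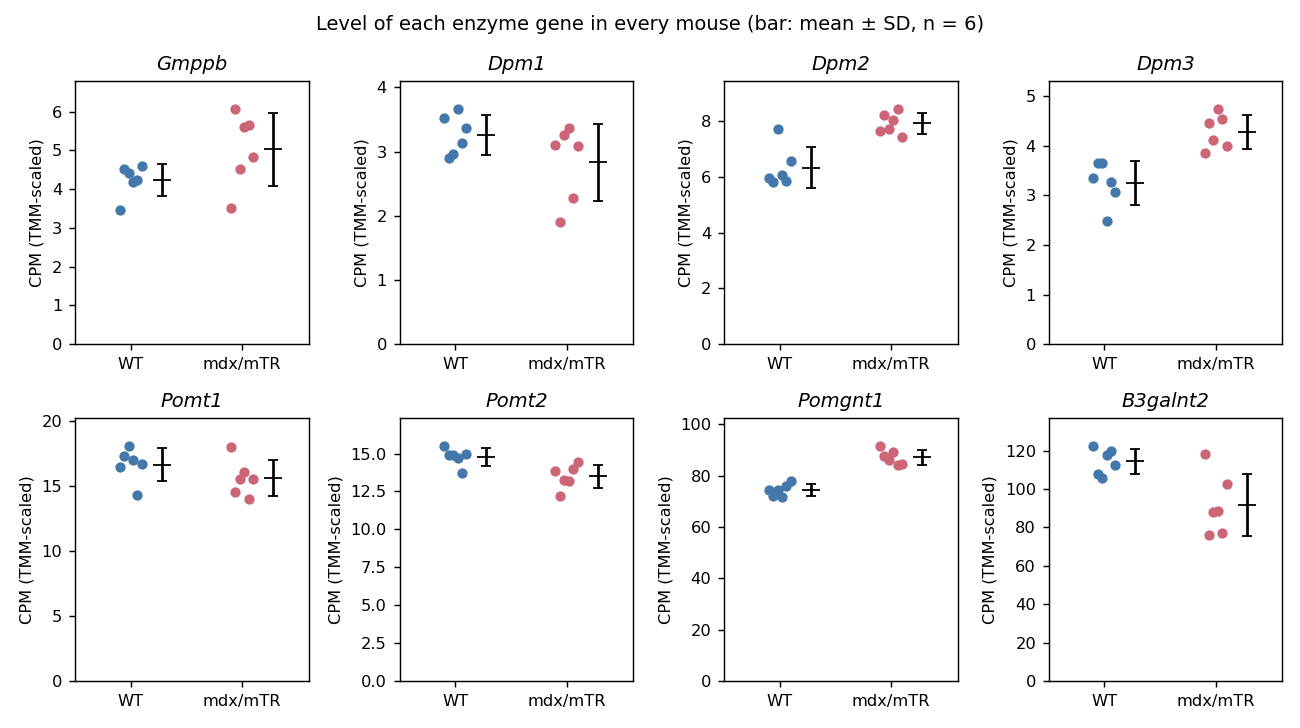
TMM-scaled CPM of the 8 genes in each of 6 WT and 6 mdx/mTR mice, with the mean and SD beside the points. All 6 mdx/mTR mice lay above all WT mice for Pomgnt1 (84.0 to 91.6 against 71.7 to 78.0 CPM) and Dpm3 (3.85 to 4.74 against 2.49 to 3.66 CPM), and the groups overlapped for the other 6 genes.

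A WT library held 36903560 to 40981012 counts and an mdx/mTR library 35136327 to 60330410. Dmd fell from 237 ± 6.90 to 46.8 ± 7.20 CPM (SD, n = 6 each), which checks the mdx label. Terc had 2 counts in all and could not serve as a check of the labels. The 8 adult myofibre markers, the check of the tissue label, together took 178125 to 207585 CPM in WT and 137427 to 189094 CPM in mdx/mTR, with 2 of 8 lower. Macrophage markers summed to 61.6 to 112 CPM in WT and 210 to 634 CPM in mdx/mTR, with 6 of 6 higher. Fibroblast markers summed to 840 to 1558 CPM in WT and 2160 to 4357 CPM in mdx/mTR, with 5 of 5 higher. Regenerating fibre markers summed to 19.4 to 21.2 CPM in WT and 88.9 to 509 CPM in mdx/mTR, with 6 of 6 higher. Schwann cell markers summed to 39.5 to 50.9 CPM in WT against 21.2 to 32.4 CPM in mdx/mTR, with 3 of 3 lower, and endothelial markers to 391 to 516 against 311 to 413 CPM, with 2 of 4 lower. Of these 17 macrophage, fibroblast and regenerating fibre markers, Tmem8c (mean 0.0592 CPM) and Chrng (0.0673 CPM), both of regenerating fibres, lay under the level of 3 counts in WT. Their part in the results below was not tested. In bulk muscle, fewer cells of a type and less RNA per cell cannot be told apart.

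The supply of activated mannose was examined first. Gmppb (chromosome 9, 108049242 to 108052801, GRCm38, forward strand, 9 exons in its principal transcript) encodes the catalytic subunit of the enzyme that makes GDP-mannose. It stood at 3.47, 4.32 and 4.59 CPM (lowest, median and highest) in WT and at 3.50, 5.21 and 6.06 CPM in mdx/mTR. Of the mdx/mTR mice, 4 lay above every WT mouse, while mdx/mTR replicate 1 lay near the lowest WT mouse. The log2 fold change was 0.25 ± 0.13 (SE; 95% interval -0.02 to 0.52; edgeR adjusted p 0.122), so no difference was called. Without mdx/mTR replicate 1 it was 0.33 and passed (edgeR adjusted p 0.0171), and with library totals alone it was 0.41 and passed (adjusted p 0.0345). Exons of Rnf123, a gene of the opposite strand, cover 34.7% of the Gmppb transcript, and whether the counting used strand is not given in the sources used here, so the Gmppb level is uncertain. Rnf123 had means of 177 CPM (WT) and 192 CPM (mdx/mTR) and was not called (edgeR adjusted p 0.194).

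Gmppa encodes the regulatory partner of the GMPPB protein. It stood at 29.6, 30.8 and 33.0 CPM in WT and at 29.9, 30.5 and 37.2 CPM in mdx/mTR, with overlapping groups and a log2 fold change of 0.03 ± 0.06 (SE; edgeR adjusted p 0.735). With library totals alone Gmppa was 0.18 and passed (adjusted p 0.0171). The ratio of Gmppb to Gmppa counts, which does not depend on library scaling, was 0.112 to 0.155 in WT and 0.112 to 0.201 in mdx/mTR. Its mean log2 difference was 0.21 (two-sided exact permutation test, p 0.221; adjusted p 0.294 over the 4 ratios tested).

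Dolichol-phosphate mannose synthase has 3 subunits, and the genes of 2 of them rose. Dpm1 (chromosome 2, 168209048 to 168230591, GRCm38, reverse strand, 9 exons) encodes the catalytic subunit. It stood at 2.90, 3.25 and 3.66 CPM in WT and at 1.90, 3.10 and 3.37 CPM in mdx/mTR. The groups overlapped, with mdx/mTR replicates 2 and 5 below all WT mice, and the log2 fold change was -0.21 ± 0.14 (SE; 95% interval -0.51 to 0.10; edgeR adjusted p 0.249). It was -0.11 without mdx/mTR replicate 2 and -0.06 with library totals alone. The level of Dpm1 is uncertain, because 39.0% of its principal transcript is shared with Dpm1-adnp, a readthrough gene listed in the table with 0 counts in all 12 libraries. How reads of the shared bases were assigned is not given in the sources used here. Adnp, the other gene of the readthrough, had 16 to 36 counts a library.

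Dpm2 (chromosome 2, 32570858 to 32573579, GRCm38, forward strand, 4 exons) encodes a small membrane subunit that regulates the enzyme. It rose from 5.80, 6.02 and 7.72 CPM in WT to 7.43, 7.89 and 8.43 CPM in mdx/mTR. Only WT replicate 3 reached into the mdx/mTR range, and 4 of 6 mdx/mTR mice lay above all WT mice. The log2 fold change was 0.32 ± 0.08 (SE; 95% interval 0.15 to 0.49; edgeR adjusted p 0.00405). Dpm3 (chromosome 3, 89259358 to 89267079, GRCm38, forward strand, 3 exons) encodes the subunit that tethers DPM1 to the membrane of the endoplasmic reticulum. It rose from 2.49, 3.31 and 3.66 CPM in WT to 3.85, 4.30 and 4.74 CPM in mdx/mTR, without overlap. Its log2 fold change of 0.40 ± 0.10 (SE; 95% interval 0.18 to 0.62; edgeR adjusted p 0.00616) was the largest rise of the 8 genes. Neither Dpm2 nor Dpm3 shares exonic bases with another gene of the annotation.

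Within a library, Dpm2 and Dpm3 gained on Dpm1. The Dpm2 to Dpm1 count ratio was 1.66, 1.91 and 2.60 (lowest, median and highest) in WT and 2.38, 2.43 and 4.32 in mdx/mTR. Its mean log2 difference was 0.56 (two-sided exact permutation test, p 0.0108; adjusted p 0.0216 over 4 ratios), with WT replicate 3 inside the mdx/mTR range. The Dpm3 to Dpm1 ratio was 0.681, 0.996 and 1.26 in WT and 1.24, 1.35 and 2.35 in mdx/mTR. Here 5 of 6 mdx/mTR mice lay above all WT mice, with a mean log2 difference of 0.63 (two-sided exact permutation test, p 0.00433; adjusted p 0.0173). The highest ratios were those of mdx/mTR replicates 2 and 5, the mice lowest for Dpm1. The adjusted p of the Dpm2 ratio rose to between 0.0519 and 0.0606 without WT replicate 1, 2, 4, 5 or 6, and that of the Dpm3 ratio to 0.0606 without WT replicate 4. The uncertainty of the Dpm1 counts applies to both ratios, which share Dpm1 and so are not independent. The ratios were chosen with earlier results of these data known, and the adjustment over 4 ratios does not cover that choice.

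**Figure D2:**
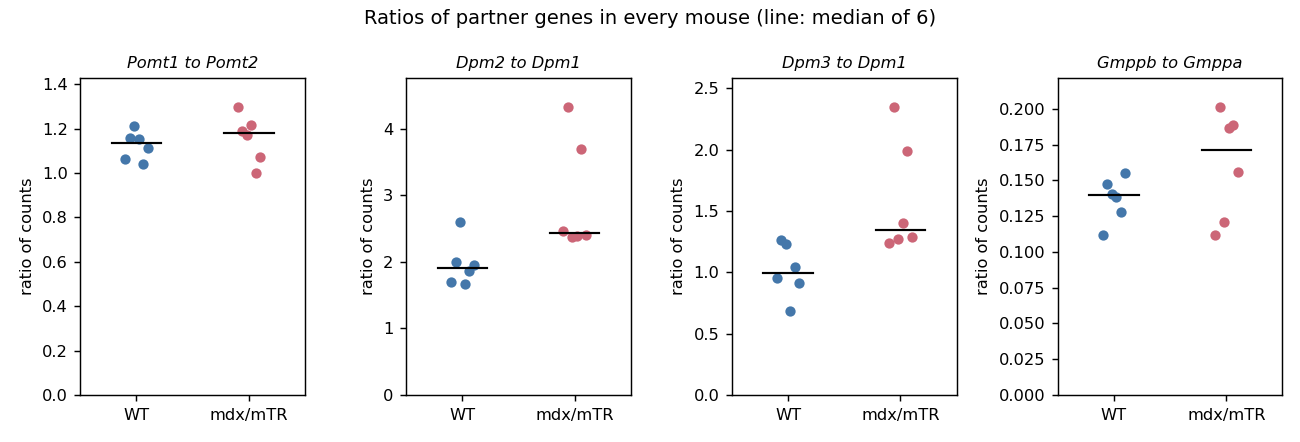
Ratio of counts of partner genes in each mouse, with the median of 6 as a line; each panel starts at 0. The Dpm2 to Dpm1 and Dpm3 to Dpm1 ratios were higher in mdx/mTR (medians 2.43 against 1.91 and 1.35 against 0.996), while Pomt1 to Pomt2 and Gmppb to Gmppa did not pass the test.

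The transfer of mannose to the protein is the work of the POMT1 and POMT2 proteins, which act as a complex. Pomt1 (chromosome 2, 32236590 to 32255005, GRCm38, forward strand, 20 exons) stood at 14.3, 16.8 and 18.1 CPM in WT and at 14.0, 15.5 and 18.0 CPM in mdx/mTR. The groups overlapped almost wholly, and the log2 fold change was -0.09 ± 0.07 (SE; 95% interval -0.24 to 0.06; edgeR adjusted p 0.303). Pomt2 (chromosome 12, 87106861 to 87147968, GRCm38, reverse strand, 21 exons) stood at 13.7, 14.9 and 15.5 CPM in WT and at 12.2, 13.5 and 14.4 CPM in mdx/mTR. Of the mdx/mTR mice, 3 lay below all WT mice, and the log2 fold change of -0.13 ± 0.05 (SE; 95% interval -0.25 to -0.02) missed the threshold (edgeR adjusted p 0.0585). Pomt2 passed without WT replicate 5 (-0.15, edgeR adjusted p 0.0404), without mdx/mTR replicate 6 (-0.15, adjusted p 0.0409) and in DESeq2 (-0.14, adjusted p 0.0449), and the authors' deposited table gives -0.14 with an adjusted p of 0.0419. By contrast, with library totals alone both Pomt genes changed sign (0.06 for Pomt1 and 0.02 for Pomt2). Gstz1, on the opposite strand, shares 9.18% of the Pomt2 transcript. The Pomt1 to Pomt2 count ratio was 1.04, 1.13 and 1.21 in WT and 1.0, 1.18 and 1.30 in mdx/mTR, with a mean log2 difference of 0.04 (two-sided exact permutation test, p 0.535; adjusted p 0.535).

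After the mannose the chain takes different branches, and an enzyme gene of one branch rose while that of another fell. Pomgnt1 (chromosome 4, 116123840 to 116159849, GRCm38, forward strand, 23 exons) encodes a Golgi enzyme that adds N-acetylglucosamine to the protein-bound mannose. It rose from 71.7, 74.4 and 78.0 CPM in WT to 84.0, 86.9 and 91.6 CPM in mdx/mTR. The groups did not overlap, and the log2 fold change was 0.23 ± 0.04 (SE; 95% interval 0.15 to 0.31; edgeR adjusted p 0.000308), the smallest p of the 8 genes. Lurap1, on the opposite strand, covers 21.7% of the Pomgnt1 transcript, with mean levels of 2.61 (WT) and 2.52 (mdx/mTR) CPM.

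B3galnt2 (chromosome 13, 13954469 to 13999103, GRCm38, forward strand, 12 exons) encodes the enzyme that adds N-acetylgalactosamine on the branch that goes on to bind laminin. It fell from 106, 115 and 122 CPM in WT to 76.0, 88.4 and 118 CPM in mdx/mTR. Of the mdx/mTR mice, 5 lay below all WT mice, while mdx/mTR replicate 1, at 118 CPM, lay within the WT range. The log2 fold change was -0.32 ± 0.10 (SE; 95% interval -0.52 to -0.11; edgeR adjusted p 0.0147). With library totals alone it was -0.17 and did not pass (edgeR adjusted p 0.0689), and without mdx/mTR replicate 1 it was -0.40 (adjusted p 0.000910). The same mouse, mdx/mTR replicate 1, was the lowest of its group for Gmppb and Dpm3 and the highest for Pomt1, Pomgnt1 and B3galnt2. Tbce, on the opposite strand, shares 8.35% of the B3galnt2 transcript, with mean levels of 17.7 (WT) and 17.6 (mdx/mTR) CPM.

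**Figure D3:**
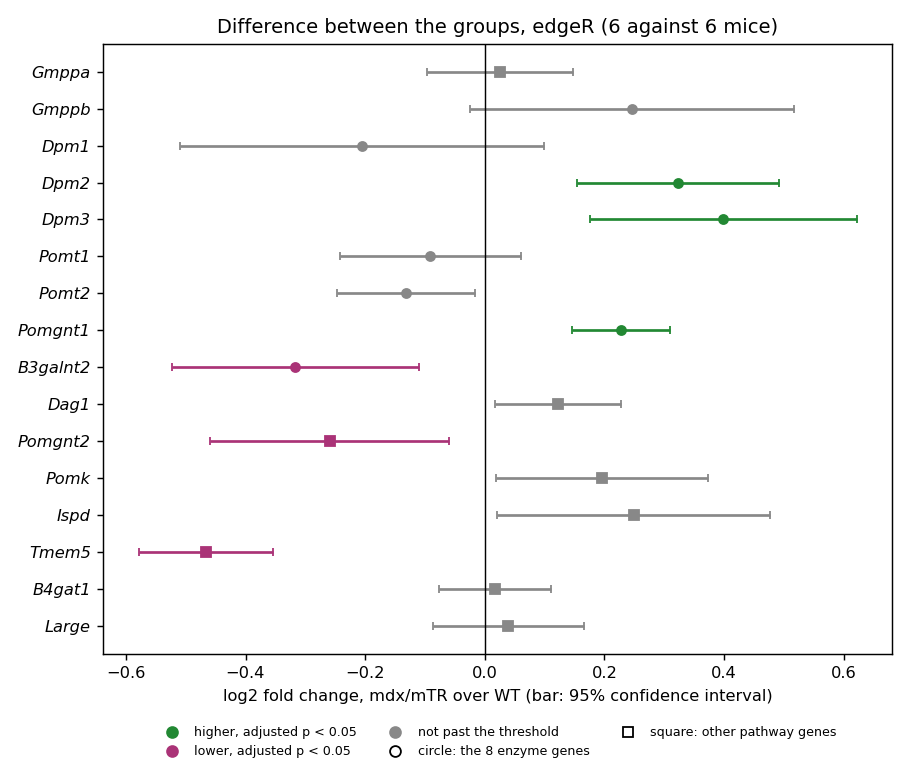
Difference between mdx/mTR and WT on the log2 scale (point) and its 95% confidence interval (bar), for the 8 enzyme genes (circles) and for Gmppa and 7 further genes of the pathway (squares), in the order of the text. Dpm2, Dpm3 and Pomgnt1 lie above 0 and past the threshold, and B3galnt2, Pomgnt2 and Tmem5 lie below 0 and past it.

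The rest of the pathway was read from a list of 8 genes: Dag1, which encodes dystroglycan itself, and enzymes of the later steps. Of 7 tested genes, 0 were higher and 2 were lower, with a median log2 fold change of 0.04 (0.01 for all genes). Dag1 stood at 399, 418 and 451 CPM in WT and at 420, 462 and 485 CPM in mdx/mTR, with a log2 fold change of 0.12 ± 0.05 (SE; edgeR adjusted p 0.0542). It passed without WT replicate 3 (adjusted p 0.0386), without mdx/mTR replicate 4 (0.0279) and in DESeq2 (0.0195), and the authors' deposited table gives 0.11 with an adjusted p of 0.0270.

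The 2 genes that fell were Tmem5 and Pomgnt2. They encode steps of the laminin-binding branch, as do the other enzyme genes of the list, so the branch does not set them apart. Tmem5, the table's name for the xylosyltransferase gene Rxylt1, fell from 28.7 ± 2.0 to 20.8 ± 0.731 CPM (SD, n = 6 each) without overlap (-0.47 ± 0.05 SE, edgeR adjusted p 1.3e-05). Pomgnt2, whose product adds N-acetylglucosamine in the endoplasmic reticulum, fell from 17.8 ± 1.74 to 14.8 ± 2.10 CPM (-0.26 ± 0.09 SE, edgeR adjusted p 0.0335). That call was lost without WT replicate 1, 2, 4 or 5 and without mdx/mTR replicate 2, 3 or 5, with adjusted p from 0.0506 to 0.0745, under upper quartile scaling (0.0642) and in limma-voom with sample weights (-0.17, adjusted p 0.133). With library totals alone Pomgnt2 did not pass (adjusted p 0.315).

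The other tested genes of the list did not pass. Pomk, which encodes the kinase that phosphorylates the mannose, had a log2 fold change of 0.20 (edgeR adjusted p 0.0651), and it passed without WT replicate 2 (0.0496) or mdx/mTR replicate 4 (0.0324), while without mdx/mTR replicate 1 it was 0.13 (0.142). Ispd, whose product makes CDP-ribitol, had 0.25 (adjusted p 0.0685), and it passed without WT replicate 1 (0.0417). B4gat1 (0.02, adjusted p 0.770) and Large (0.04, adjusted p 0.606), whose products start and extend the laminin-binding repeat, had 95% intervals of -0.08 to 0.11 and of -0.09 to 0.17. The level of B4gat1 is uncertain, since 96.8% of its transcript is shared with another gene of the same strand, AC124502.3. The deposited counts hold no entry under that name. Exons of D630036H23Rik, on the opposite strand and also without an entry, cover 18.8% of the Ispd transcript. Gyltl1b, a paralog of Large, had mean levels of 0.0628 (WT) and 0.0895 (mdx/mTR) CPM and did not pass the filter. With library totals alone 6 genes of the list passed, 5 higher (Dag1, Pomk, Ispd, B4gat1 and Large) and 1 lower (Tmem5). The count past the threshold was 1 without WT replicate 4 or 5 or mdx/mTR replicate 2, 3 or 5, and 4 without mdx/mTR replicate 4.

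Levels of different genes were compared here per kilobase (kb) of the principal GENCODE transcript. The count ratios given elsewhere are not divided by length. In WT the order was B3galnt2 (29.4 ± 1.72 CPM per kb; SD, n = 6), Pomgnt1 (25.2 ± 0.798), Dpm2 (7.28 ± 0.841), Pomt1 (5.69 ± 0.436), Dpm3 (3.93 ± 0.529), Pomt2 (2.92 ± 0.116), Gmppb (1.57 ± 0.150) and Dpm1 (1.42 ± 0.134). Among neighbours in that order, the ranges over mice overlapped for Dpm3 with Pomt2 and for Gmppb with Dpm1. In mdx/mTR, Pomgnt1 (29.5 ± 0.977) stood above B3galnt2 (23.6 ± 4.18), though the ranges of these genes overlapped there (28.5 to 31.0 and 19.5 to 30.4 CPM per kb). Dpm3 (5.18 ± 0.419) came level with Pomt1 (5.34 ± 0.473), with overlapping ranges. The substrate gene Dag1 stood far above the enzymes, at 74.2 ± 3.39 CPM per kb in WT and 80.8 ± 3.79 in mdx/mTR. The levels of Dpm1 and Gmppb carry the uncertainty of their shared bases.

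**Figure D4:**
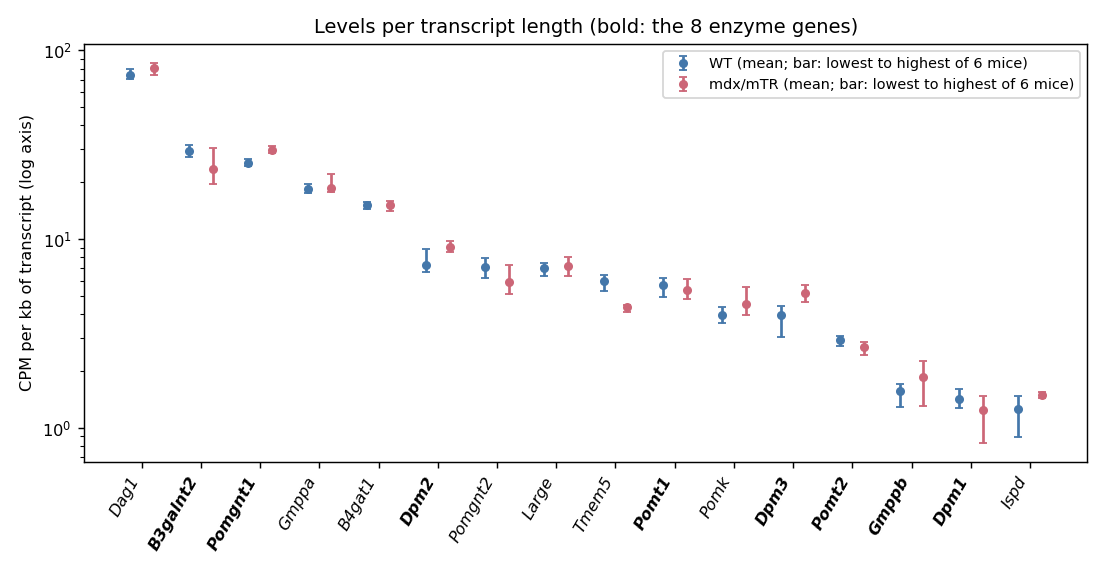
Mean CPM per kb of transcript in WT and mdx/mTR on a log axis, with bars from the lowest to the highest of 6 mice; genes are ordered by their WT mean and the 8 enzyme genes are in bold. B3galnt2 and Pomgnt1 lead the 8 genes in both groups, and Dpm1 is lowest of the 8.

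The sequence before the start site is shown for the 3 genes that rose, Dpm2, Dpm3 and Pomgnt1, as RefSeq gives it on GRCm38.p6. Promoter windows of 250 bases before and 50 bases after a start were found for 6 of the 8 genes (7 windows, Pomgnt1 having 2), and Gmppb and B3galnt2 had none. The Dpm2 sequence is chr2:32570608-32570857 (forward strand), the Dpm3 sequence chr3:89266211-89266362 (forward strand, without the bases that GENCODE places in an exon), and the Pomgnt1 sequence chr4:116150268-116150517 (forward strand). The last 2 lie before RefSeq starts that fall within the longer GENCODE genes. Capitals mark GGGCGG, the Sp1 box, on either strand.
Dpm2: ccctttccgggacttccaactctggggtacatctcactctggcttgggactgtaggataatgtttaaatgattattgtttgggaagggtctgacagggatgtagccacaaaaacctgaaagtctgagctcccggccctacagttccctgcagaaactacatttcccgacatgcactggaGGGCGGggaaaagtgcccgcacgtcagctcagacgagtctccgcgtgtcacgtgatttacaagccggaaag
Dpm3: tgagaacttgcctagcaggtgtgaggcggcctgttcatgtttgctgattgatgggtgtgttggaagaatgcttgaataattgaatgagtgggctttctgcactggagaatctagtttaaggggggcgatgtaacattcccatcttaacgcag
Pomgnt1: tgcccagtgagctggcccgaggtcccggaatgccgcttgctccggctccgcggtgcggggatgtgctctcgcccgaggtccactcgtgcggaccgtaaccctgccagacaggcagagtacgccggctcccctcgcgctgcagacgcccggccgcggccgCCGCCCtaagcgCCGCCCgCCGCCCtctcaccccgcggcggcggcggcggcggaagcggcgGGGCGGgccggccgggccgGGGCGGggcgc

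In the printed Pomgnt1 window the Sp1 box had 5 matches, against 1 in Dpm2 and 0 in Dpm3, so the 3 genes do not share it. The other Pomgnt1 window, not printed, held an E-box and TATAAA but no Sp1 box. G and C made up 80.0% of the 250 bases before the start in the printed Pomgnt1 window. In Dpm2 they made up 52.4% and in Dpm3 47.6%. Over the 7 windows, on either strand, GGGCGG was found in 3 (35.7% of all 32851 windows in the table), the CCAAT box in 2 (37.4%), the E-box CANNTG in 5 (72.3%), TATAAA in 1 (13.6%) and the NRF1 motif in 1, that of Pomt1 (0.971%). The ETS motif CCGGAAGT (3.89%), the ER stress element, which contains the CCAAT box (0.119%), and the unfolded protein element TGACGTGG (0.676%) were found in 0 of the 7. A match is a description of these letters only.

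Genes for mannose donors, dolichol and related sugar supply were read from a list of 11 genes. Of these, 3 were higher and 4 lower, with a median log2 fold change of -0.05. Srd5a3, which encodes a reductase of dolichol synthesis, rose from 3.04 ± 0.323 to 5.43 ± 1.43 CPM (SD, n = 6 each; 0.84 ± 0.16 SE, edgeR adjusted p 0.000693). Dolpp1, whose product recycles dolichol, fell (-0.32, adjusted p 0.00176), as did Gfpt1 (-0.20, adjusted p 0.00231), which encodes the entry enzyme of hexosamine synthesis and makes neither mannose donors nor dolichol. Scaled by library totals alone, 5 genes of the list were higher and 0 lower.

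Other reactions that use dolichol-phosphate mannose, or that place mannose on other proteins, were read from 13 genes. Of these, 3 were higher and 4 lower, with a median of -0.01. Tmtc4, which encodes a mannosyltransferase for cadherins, rose (0.60 ± 0.12 SE, edgeR adjusted p 0.00117), as did Dpy19l1 (0.51, adjusted p 0.00211), which encodes a C-mannosyltransferase. Alg3, which encodes a mannosyltransferase of the N-glycan precursor, fell (-0.26, adjusted p 0.00210). Under that scaling 4 were higher and 0 lower.

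Of 20 genes for N-glycan assembly and transfer, 4 were higher and 2 lower, with a median of 0.01. Tusc3 (0.61, edgeR adjusted p 0.00364), an oligosaccharyltransferase subunit, and Alg14 (0.33, adjusted p 0.00629), which takes part in the first steps of precursor assembly, rose, and Stt3b, a catalytic subunit of the same enzyme as Tusc3, fell (-0.17, adjusted p 0.00710). Of these 20 genes, 30.0% were called, against 48.3% of all genes. The share was 28.6% in the later-step list, 63.6% in the supply list and 53.8% in the list of other mannose users. The stress list described below lay close to the share of all genes. In the ligand list, also described below, 3 of 5 genes were called, too few genes to set that share apart. Whether the share of any list differs from that of all genes was not tested. With library totals alone, 9 of the 20 N-glycan genes passed, against 7156 of 13937 genes, so the gap was smaller. Of 12 genes of the endoplasmic reticulum stress response, 3 were higher and 3 lower, with a median of 0.00. Atf4 (-0.50, edgeR adjusted p 1.1e-05) and Ddit3 (-0.64, adjusted p 0.000293), both transcription factors of that response, fell, and Edem1, which directs misfolded glycoproteins to degradation, rose (0.67, adjusted p 0.000338). Scaled by totals, 9 N-glycan genes were higher and 0 lower, and 4 stress genes were higher and 2 lower.

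Laminin and the other matrix proteins that bind the finished sugar chain were read from 5 genes, 3 of them higher and 0 lower, with a median of 0.42. The laminin binds through its alpha chain, encoded by Lama2, while Lamb1 and Lamc1 encode the beta and gamma chains of the same trimer. Lama2 (0.60 ± 0.08 SE, edgeR adjusted p 4.7e-05), Lamb1 (0.96, adjusted p 0.000964) and Lamc1 (0.42, adjusted p 0.00340) rose. Agrn and Hspg2, which encode agrin and perlecan, did not pass. Fibroblast markers, whose values are given above, rose in the same mice, and their part in the laminin levels was not tested.

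**Figure D5:**
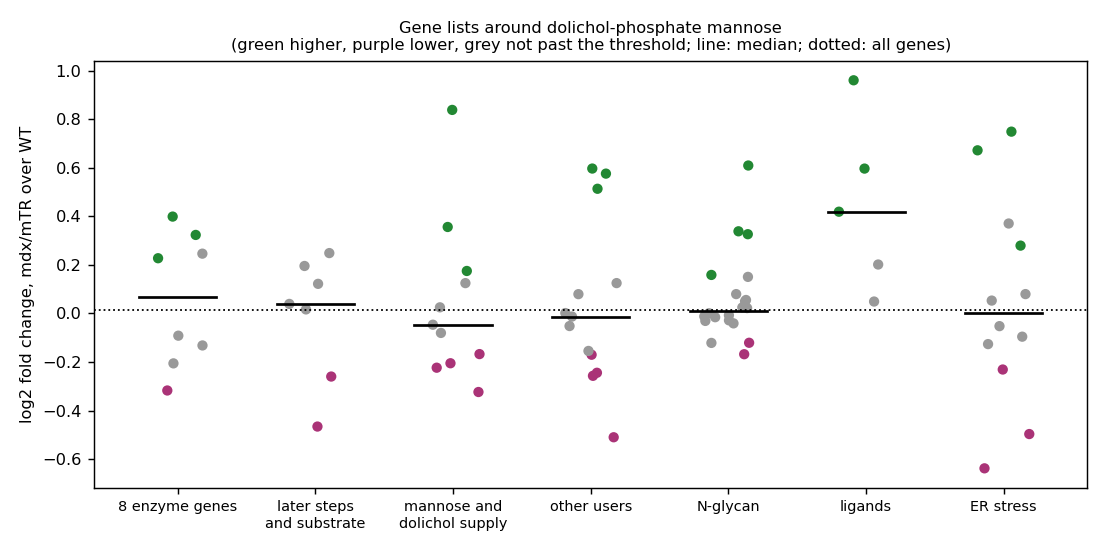
Difference between mdx/mTR and WT on the log2 scale for every tested gene of the 7 lists, with the median of each list as a line and that of all genes (0.01) dotted. The 8 enzyme genes spread to both sides of 0, from -0.32 (B3galnt2) to 0.40 (Dpm3), and the ligand list has the highest median (0.42).

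For each of the 8 genes, the gene with the most similar pattern between mice was sought among those of at least 5 CPM, as the Pearson correlation of log2 CPM over the 12 mice after the mean of each group was subtracted. These were 8430408G22Rik for Pomt1 (0.92), Kat6a for Pomt2 (0.92), Ankzf1 for Pomgnt1 (0.88), Frmd6 for Gmppb (0.92), Zhx1 for B3galnt2 (0.95), Aldh6a1 for Dpm1 (0.94), Fgfr3 for Dpm2 (0.87) and Gna11 for Dpm3 (0.89). No gene was named for more than 1 of the 8. Each value is the highest of many and a description of these 12 libraries, and genes of the same library share its depth and scaling.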

How the data were processed

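The authors deposited whole-number counts per gene symbol, 1 column per mouse, and a table of their own comparison holding mean normalized signal, log2 fold changes and their standard errors, the score of a test, and raw and adjusted p-values, per the file headers. FastQC, STAR, DESeq2 and the build mm10 are named in the submitters' processing notes; counter, annotation and strand handling are not given in the sources used here. RNA was column-purified and passed an integrity limit, per the labels' protocols. 0 sample columns were left unmatched.

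The deposited counts went unchanged into edgeR 4.0.16 (R 4.3.3): filterByExpr (13937 genes, 99.97% of counts), TMM scaling, glmQLFit and glmQLFTest with group as the only term, Benjamini-Hochberg adjustment over all genes tested, threshold 0.05. The SE is the log2 fold change divided by the square root of F. Ratios of partner genes used two-sided exact permutation tests over the 12 mice (Python 3.11.15, numpy 2.4.6), adjusted over 4 ratios; the smallest p is 0.00216. The limit for a gene with 0 counts is 3 counts, or 0.0460 to 0.0837 CPM (counting error only). Transcript lengths and exon overlap came from GENCODE M21. On simulated counts for mdx/mTR against WT (13937 genes, 200 changed), edgeR recovered 86.0% of 2-fold and 71.0% of 1.4-fold changes with 6 false calls. DESeq2 recovered 89.0% and 79.0% with 29 false calls. Each member's fitted change is smaller than 1.4-fold. In the data 48.3% of genes were called, a far larger share than was changed in the simulation. The recovery rates and counts of false calls therefore do not carry over to the data.

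Groups and numbers came from the labels. Mice were not paired by number, because nothing states that the numbers pair mice. Deviations of same-numbered mice correlated at -0.139 to 0.334, over 0.1 for 2 of 6 numbers, which does not settle whether they are paired. Alternatives were other filters and scalings, DESeq2 1.42.0, limma-voom (limma 3.58.1), a replicate block, each mouse left out, and a threshold of 0.01. The members, lists and ratios were chosen with earlier results of these data known; some genes of the later-step list are not reported here and enter no count of it. Named genes were the 8 members, Dmd, Terc, Gmppa, the later-step list, the 3 smallest p-values past the threshold of each other list, and the most similar gene for each member; genes that share exons with a named gene, Agrn, Hspg2, Tmem8c and Chrng were named after their values were seen.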

Additional observations from a re-analysis of the deposited data

Results flagged for a closer look

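A mouse is named here when it was the highest or lowest of its group of 6 and its gap to the next mouse exceeded 0.625 of the group's range. That held in 5 of 72 groups of values, and chance alone gives about 1 in 20 (3.60 here). Among the 8 enzyme genes this was Gmppb in WT replicate 1, with 3.47 CPM where the other WT mice had 4.19 to 4.59. The Dpm2 to Dpm1 ratio of WT replicate 3 was 2.60 against 1.66 to 2.0. Gmppa stood at 37.2 CPM in mdx/mTR replicate 3 against 29.9 to 31.3 CPM. Stt3b stood at 118 CPM in mdx/mTR replicate 1 against 130 to 134 CPM, and Dolpp1 at 15.0 CPM in WT replicate 1 against 12.1 to 13.0 CPM.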

How the results depend on the processing

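Dpm2, Dpm3 and Pomgnt1 kept their direction and their call under all 21 alternatives run for each, with log2 fold changes of 0.28 to 0.48, 0.33 to 0.56 and 0.21 to 0.38. B3galnt2 kept its direction under all 21 and its call under 20, with -0.17 from library totals alone. Fits that each left out 1 mouse gave 6125 to 6816 genes past the threshold, 4 to 5 of the 8 enzyme genes, -0.15 to -0.10 for Pomt2, 0.18 to 0.33 for Gmppb, 0.44 to 0.64 for the Dpm2 to Dpm1 ratio and 0.51 to 0.70 for the Dpm3 to Dpm1 ratio. The later-step list had 1 to 4 genes past the threshold in those fits, and 4 with a filter of at least 1 CPM in 6 libraries or with upper quartile scaling. At a threshold of 0.01, 3 of the 8 enzyme genes passed. Pomt2 was -0.14 and passed with size factors of the DESeq2 type (RLE) in edgeR and in DESeq2. With library totals alone, 7156 genes passed, 78.2% of them higher in place of 51.6%; Gmppb was 0.41 and passed, Pomt1 was 0.0596 and Pomt2 0.0238, the later-step list had 6 genes past the threshold in place of 2 and the list of other mannose users 4 in place of 7. Of the genes most similar to a member, Kat6a (0.0439), Ankzf1 (0.104) and Fgfr3 (0.0546) turned positive under that scaling, and fits without 1 mouse ran from -0.182 to 0.0291 for Fgfr3 (positive without WT replicate 3) and from -0.0263 to 0.0429 for Gmppa (negative without mdx/mTR replicate 3). That scaling keeps a shift of the median gene that TMM removes.

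With a replicate block, 6420 genes passed and the calls of the 8 genes did not change; mice with the same number matched each other best in 2 of 6 numbers. Pairing by number (sign flips, smallest p 0.0312) left the ratio differences at 0.56 for Dpm2 to Dpm1 and 0.63 for Dpm3 to Dpm1 and gave both an adjusted p of 0.125. A single ratio at that smallest p is adjusted to 0.125 over 4 ratios, so these values say nothing about stability.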

Other observations

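Ratios of further genes were read after the values had been seen, as values with no test; like the partner ratios they do not depend on library scaling. The Pomgnt1 to B3galnt2 count ratio was 0.608 to 0.704 in the 6 WT mice and 0.774 to 1.15 in the 6 mdx/mTR mice. The Pomgnt1 to Pomgnt2 ratio was 3.69, 4.15 and 4.87 (lowest, median and highest) in WT and 4.87, 6.16 and 6.75 in mdx/mTR, so the groups all but touched. The counts of Pomt1 and Pomt2 together came to 7.02% to 7.78% of those of Dag1 in WT and to 5.77% to 6.97% in mdx/mTR. All 3 ratios separated the groups in these 12 libraries, as did 25.2% of all genes tested when taken singly. Because the ratios were picked with the values in view, this separation is not a result about the genes.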
